A study of Mus musculus with 120 samples.

Results

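Blood of App-NLGF mice and wild-type mice at postnatal week 3 differed in DNA methylation at 1153 windows of 1 kb, out of 8961 such windows called over 6 comparisons of the genotypes. The members are every window that the authors' deposited table assigns to blood at this age. Each group held 10 libraries, 5 from males and 5 from females, made by whole-genome bisulfite sequencing of DNA from lysed frozen blood. One group carried the APP-nlgf genotype and the other was wild type, with no other allele or agent named, and the remaining 10 groups covered both genotypes in blood at weeks 8 and 24 and in hippocampus at weeks 3, 8 and 24. The comparison asks whether methylation of blood DNA differs between the genotypes at an age before amyloid plaques are a feature of the model. Bisulfite converts unmethylated cytosine and leaves methylated cytosine, so the share of unconverted cytosines in a window gives its methylation level. Every window comes with its difference between the groups, in percentage points, and with raw and adjusted p-values. Levels per library and coverage were not analysed here. Depth is therefore unknown, no spread between animals can be shown, and the p-values are the authors' own. The sign is read as App-NLGF minus wild type, from the name of the comparison alone.

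In App-NLGF mice the animals' own App gene carries a humanised amyloid-beta sequence and the Swedish, Iberian and Arctic mutations of familial Alzheimer's disease. The precursor protein is therefore made from its normal promoter in every cell that uses it and is not overexpressed. Mature red cells of the mouse have no nucleus, so blood DNA comes mainly from white cells, and a difference in blood can reflect the mix of cells as well as the state of any of them. The 2 could not be told apart here, and markers of blood cells could not be checked, because the table holds no methylation levels. In mammals most methylation sits on cytosines followed by guanine (CpG). CpGs are sparse and mostly methylated across the genome, and dense and mostly unmethylated in the CpG islands at the starts of many genes.

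The windows that covered gene starts are shown first, because a start is where a methylation difference can be set beside the sequence itself. RefSeq's promoter table (GRCm38.p6, the same coordinates as mm10) holds 32619 promoters of 300 bases, from 250 before to 50 after each start. The called windows touched 19 of them (0.0582%) in 17 windows, 10 higher and 7 lower in App-NLGF. Among these, 10 promoters lay wholly inside 9 windows. The 6 whose window was higher held 9 to 25 CpGs, and the 4 whose window was lower held 0 to 3. The 9 promoters that lay only partly inside a window overlapped in this respect, with 1 to 19 CpGs where the window was higher and 2 to 10 where it was lower. Of all listed promoters 94.7% held at least one CG, the median was 7 and 37.7% held fewer than 5. CG was searched as those 2 letters, which read the same on both strands. The following 6 promoters, written 5′ to 3′ on the gene's strand with every CpG in capitals, show the contrast among whole promoters. The first 3 lay in windows that were higher in App-NLGF and the last 3 in windows that were lower.
Fam220a, chr5:143548470-143548769, plus strand: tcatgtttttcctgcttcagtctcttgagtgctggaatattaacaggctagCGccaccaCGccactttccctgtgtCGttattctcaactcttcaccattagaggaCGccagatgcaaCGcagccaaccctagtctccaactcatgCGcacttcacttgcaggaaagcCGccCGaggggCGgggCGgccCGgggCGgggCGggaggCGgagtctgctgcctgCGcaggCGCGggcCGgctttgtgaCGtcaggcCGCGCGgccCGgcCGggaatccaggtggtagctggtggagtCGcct
Tent5d, chrX:107816227-107816526, plus strand: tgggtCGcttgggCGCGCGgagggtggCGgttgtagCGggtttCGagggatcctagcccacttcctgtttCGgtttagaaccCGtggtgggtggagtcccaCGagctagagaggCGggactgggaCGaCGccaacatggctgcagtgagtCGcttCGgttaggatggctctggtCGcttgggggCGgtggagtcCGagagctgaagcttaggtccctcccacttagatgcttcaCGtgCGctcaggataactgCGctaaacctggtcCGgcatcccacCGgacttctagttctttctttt
Smn1, chr13:100124605-100124904, plus strand: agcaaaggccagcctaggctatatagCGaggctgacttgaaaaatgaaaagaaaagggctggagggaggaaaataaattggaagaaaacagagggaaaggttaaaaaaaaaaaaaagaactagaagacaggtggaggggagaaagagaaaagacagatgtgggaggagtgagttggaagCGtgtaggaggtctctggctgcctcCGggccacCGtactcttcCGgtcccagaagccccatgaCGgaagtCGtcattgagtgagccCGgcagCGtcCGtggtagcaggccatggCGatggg
Tsc22d3, chrX:140548522-140548821, minus strand: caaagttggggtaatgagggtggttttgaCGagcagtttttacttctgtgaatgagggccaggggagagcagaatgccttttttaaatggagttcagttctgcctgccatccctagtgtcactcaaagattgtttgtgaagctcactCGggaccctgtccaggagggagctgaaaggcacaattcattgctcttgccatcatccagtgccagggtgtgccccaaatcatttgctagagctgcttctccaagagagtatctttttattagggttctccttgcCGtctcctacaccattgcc
Neu2, chr1:87594300-87594599, plus strand: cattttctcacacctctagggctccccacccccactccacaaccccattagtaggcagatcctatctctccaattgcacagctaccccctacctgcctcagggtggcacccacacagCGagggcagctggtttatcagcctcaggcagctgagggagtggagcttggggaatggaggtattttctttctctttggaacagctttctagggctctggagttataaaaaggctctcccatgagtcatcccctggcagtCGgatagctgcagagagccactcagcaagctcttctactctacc
Atxn2, chr5:121738282-121738581, plus strand: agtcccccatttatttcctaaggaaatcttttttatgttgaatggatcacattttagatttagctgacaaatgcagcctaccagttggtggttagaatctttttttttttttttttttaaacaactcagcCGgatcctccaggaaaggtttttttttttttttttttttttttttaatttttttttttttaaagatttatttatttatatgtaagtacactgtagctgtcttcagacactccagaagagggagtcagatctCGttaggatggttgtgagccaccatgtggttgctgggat

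The Fam220a promoter, at the gene's own 5′ end, held 25 CpGs, and in the authors' deposited table its window (chromosome 5, 143548001 to 143549000) was 10.4 points higher with an adjusted p of 0.0309. The Tent5d promoter is an internal start of a nucleotidyltransferase gene on X and shares its window with the opposite-strand transcript 2610002M06Rik. It held 23 CpGs, and the authors' deposited table gives its window (107816001 to 107817000) as 15.3 points higher with an adjusted p of 0.00335. Smn1 encodes the survival motor neuron protein of the spliceosome assembly complex. A listed start of this gene, with 11 CpGs, lay in a window (chromosome 13, 100124001 to 100125000) given as 11.8 points higher in the authors' deposited table, with an adjusted p of 0.0363. These starts are rich in CpGs, the kind that is usually unmethylated.

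The 4 starts that lay wholly inside lower windows held few CpGs. Tsc22d3 encodes the glucocorticoid-induced leucine zipper protein of lymphocytes and other cells. One of its internal starts, with 3 CpGs, lay in a window (chromosome X, 140548001 to 140549000) that the authors' deposited table gives as 15.8 points below wild type, that is -15.8, with an adjusted p of 0.0256. Neu2, a sialidase gene, had a start with 2 CpGs in a window (chromosome 1, 87594001 to 87595000) at -12.7 points in the authors' deposited table, with an adjusted p of 0.0217. Atxn2 encodes the RNA-binding protein ataxin-2, and its internal start with 2 CpGs lay in a window (chromosome 5, 121738001 to 121739000) at -13.1 points in the authors' deposited table (adjusted p = 0.0213). The fourth lower window covered the start of the olfactory receptor gene Olfr378, whose 300 bases held 0 CpGs, at -20.2 points in the authors' deposited table (adjusted p = 0.0430). A window is longer than a promoter, so the CpGs behind a difference can lie outside the printed bases.

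**Figure D1:**
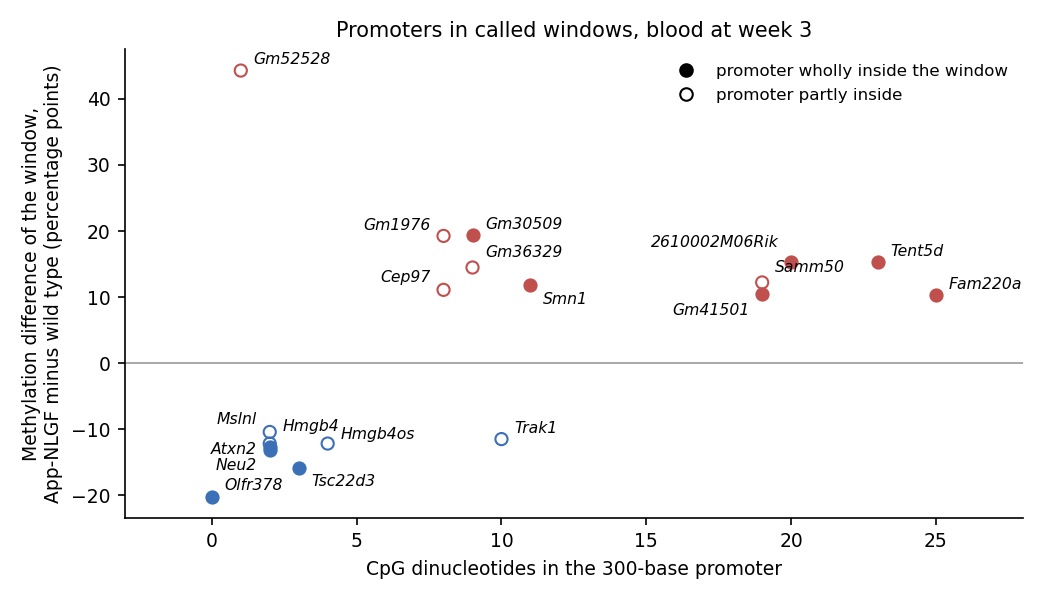
Methylation difference of the window (vertical axis, percentage points, App-NLGF minus wild type, from the authors' deposited table) against the number of CpGs in the 300-base promoter it covers (horizontal axis), for 19 promoters in 17 windows. Filled points are promoters wholly inside the window and open points those partly inside; red is higher and blue lower. The 6 filled red points sit at 9 or more CpGs and the 4 filled blue points at 3 or fewer, while the open points of both colours overlap.

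Most windows were higher in App-NLGF. Of the 1153, 729 were higher (63.2%) and 424 lower. About 2327609 windows were tested. This number was recovered from raw and adjusted p-values on the assumption of Benjamini-Hochberg adjustment, as the one that best gives whole ranks. Here 89.9% of ranks came out whole, and 78.1% for blood at week 8, so the number and all shares from it are approximate. By this number 0.0495% of windows were called, 0.0313% higher and 0.0182% lower. The other lists called 0.196% of windows (blood at week 8), 0.0244% (blood at week 24), 0.044% (hippocampus at week 3), 0.0318% (hippocampus at week 8) and 0.0408% (hippocampus at week 24). Every listed window had an adjusted p under 0.1 and differed by at least 10 points in absolute terms. The smallest absolute difference was 10.01 points and the largest adjusted p 0.0999. The recovered tests imply 1577 windows with an adjusted p this low, of which 1153 (73.1%) also had a difference large enough to be listed.

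The median absolute difference was 14.9 points (interquartile range 12.5 to 18.6), with 15.1 among higher and 14.7 among lower windows. In the other lists the median lay between 11.7 points (blood at week 8) and 14 (hippocampus at week 24). An absolute difference of at least 15 points was reached by 565 windows (49.0%), against 12.9% of windows in blood at week 8 and 38.01% to 40.99% in the remaining lists. Differences of at least 30 points numbered 29, of which 21 were higher. The median adjusted p was 0.0511, and 573 windows had one under 0.05, 105 under 0.01 and 13 under 0.001. The largest difference of all, 62.5 points higher on chromosome 3 (46992001 to 46993000), lay 544 kb from the nearest coding gene, Pabpc4l, and is given an adjusted p of 0.0975 by the authors' deposited table. A large difference with a small adjusted p was the lower window on chromosome 7 (17184001 to 17185000), 18.5 kb from the pregnancy-specific glycoprotein gene Psg29, for which the authors' deposited table gives -36.3 points (adjusted p = 0.000398).

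**Figure D2:**
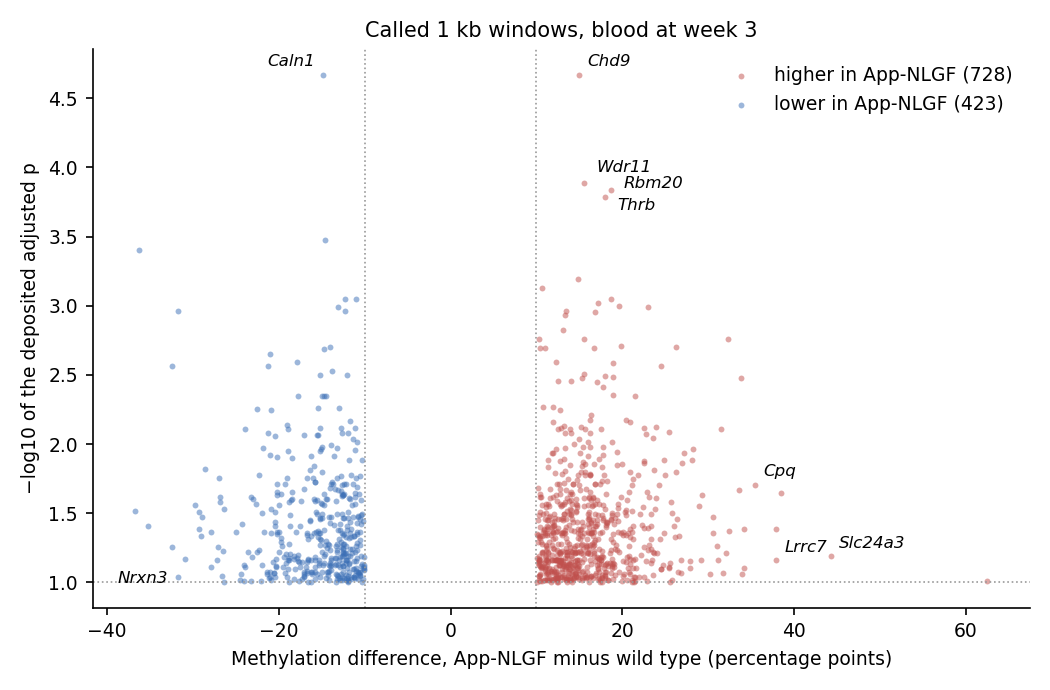
Each point is one of the 1151 called windows on chromosomes, with its methylation difference in percentage points (horizontal axis, App-NLGF minus wild type) and the −log10 of the deposited adjusted p (vertical axis). Red windows were higher and blue windows lower; dotted lines mark 10 points and an adjusted p of 0.1. The genes with the smallest adjusted p, such as Chd9 and Caln1, stand near 15 points, while Slc24a3 and Lrrc7, with the largest increases near named genes, stand near the bottom.

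Higher windows outnumbered lower ones on all 20 chromosomes, from 52.7% higher on chromosome 2 to 71.1% on chromosome 16, which carries App. Windows were spread over the genome at 4.48 per 10 Mb, with the fewest on chromosome 7 (3.37 per 10 Mb) and the most on chromosome 6 (5.66 per 10 Mb). The X chromosome, which males carry once, held 73 windows at 4.35 per 10 Mb. Its median absolute difference was 17.9 points against 14.7 for the autosomes, the highest of any chromosome. Few windows lay close together, and how many would do so at this density alone was not computed. No 2 windows touched, and joining windows up to 10 kb apart gave 6 pairs and no longer run. Of these pairs 4 were higher in both windows, 1 lower in both and 1 mixed. Pairs up to 50 kb apart numbered 30, of which 17 were mixed.

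**Figure D3:**
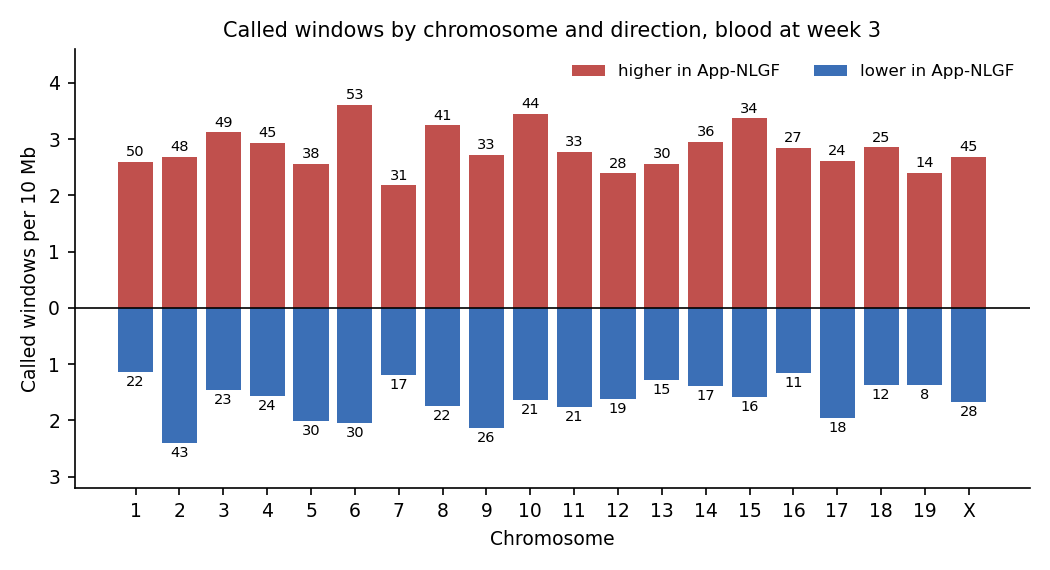
Called windows per 10 Mb on each chromosome (vertical axis), with windows higher in App-NLGF drawn upward in red and lower ones downward in blue; the small numbers are counts of windows. The red bar is the longer one on each of the 20 chromosomes, and chromosome 2, with 48 higher and 43 lower, is the most even.

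Called windows lay somewhat less often inside coding genes, and more often outside genes, than the grid of 1 kb windows as a whole. Of the 1151 windows on chromosomes, 607 (52.7%, exact 95% Clopper-Pearson interval 49.8 to 55.7) lay outside genes, against 49.4% of the grid, and 100 (8.69%) in noncoding genes only, against 8.66%. Inside coding genes lay 379 (32.9%, interval 30.2 to 35.7, grid 37.6%), and no more than 1 kb from either end of a coding gene 65 (5.65%, interval 4.39 to 7.14, grid 4.41%). The intervals cover counting of windows only, not animals. The class at gene ends took 41.9% of the list of blood at week 8. The grid counts every window from 3 Mb onward, tested or not. The share of higher windows was 61.5% at gene ends, 61.7% inside coding genes, 66% in noncoding genes and 63.9% outside genes. The share inside coding genes moved in opposite directions under stricter limits, down to 27.0% among windows of at least 15 points and up to 41.9% among windows with an adjusted p under 0.01. With distance taken from the middle of the window, 12 of 27 windows within 1 kb of a listed gene start were higher (44.4%). From 1 to 10 kb away it was 117 of 172 (68.0%). The first count is small, and of the 17 windows that touched a promoter 10 were higher. The median distance to a start was 44.6 kb, against 44.9 kb for the grid.

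**Figure D4:**
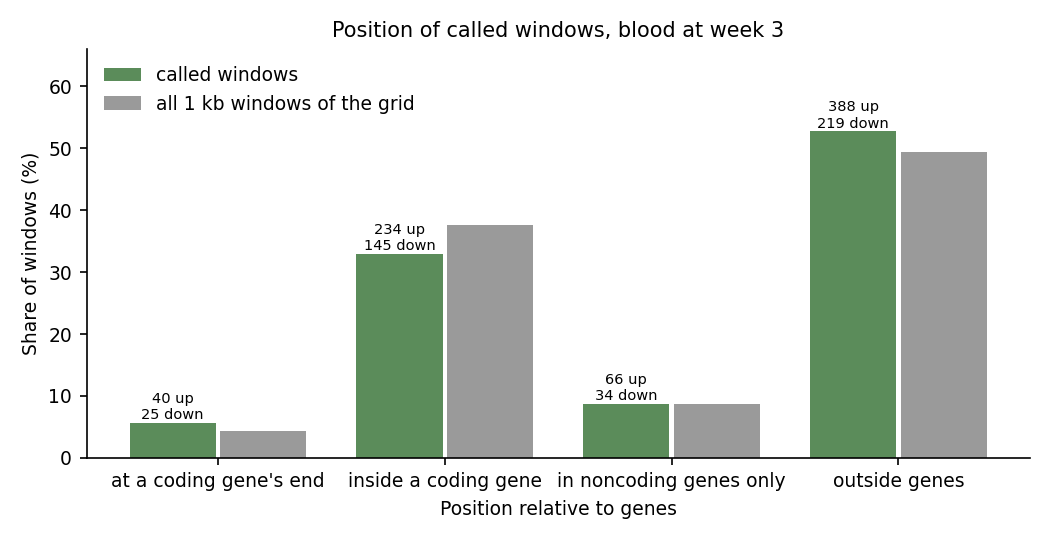
Share of windows in each position class (vertical axis, percent) for the 1151 called windows on chromosomes (green) and for all 1 kb windows of the grid (grey), with the counts of higher (up) and lower (down) windows above the green bars. Windows outside genes make up 52.7% of those called and 49.4% of the grid, and those inside coding genes 32.9% and 37.6%.

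Of 21631 coding genes, 603 (2.79%) had a called window inside or within 10 kb, 410 of them inside (1.90%). Without predicted genes, 569 coding genes remained, and 546 of them held 1 window. Anks1b, which encodes a postsynaptic adaptor that binds the App intracellular domain, was alone in having 3 inside or within 10 kb. All were higher, at 13.3, 14.1 and 16.99 points in the authors' deposited table. The 13.3-point window lay 5.9 kb outside the gene, which is 1100 kb long. Another 22 genes held 2. In 9 of these both were higher, among them Vegfc, the lymphatic growth factor, at 20.8 and 15.5 points, and Dab1, the adaptor of reelin signalling, at 10.2 and 17.01 points in the authors' deposited table. In 5 both were lower, among them the phospholipase gene Plcb1 at -12.6 and -18.6 points in the authors' deposited table. In the other 8 the signs were mixed.

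The largest differences near named genes fell in genes of many kinds. Slc24a3, a sodium, potassium and calcium exchanger gene, led the increases at 44.3 points (chromosome 2, 145361001 to 145362000, adjusted p = 0.0644 in the authors' deposited table). That window lay 194 kb into the gene and also covered part of the start of the predicted transcript Gm52528. After it the authors' deposited table lists Lrrc7, a postsynaptic scaffold gene, at 37.9 points, the plasma carboxypeptidase gene Cpq at 35.4 points and Ccdc24 at 32.3 points. Upf3b, a factor of nonsense-mediated mRNA decay on X, is given by the authors' deposited table a window of 31.7 points 4.53 kb away and another of 10.4 points inside. Sp100, an interferon-inducible component of nuclear bodies, was listed at 26.2 points by the authors' deposited table (adjusted p = 0.00198), 41.6 kb into the gene. Further down the increases the authors' deposited table has the vomeronasal receptor gene Vmn2r92 at 30.2 points, Irx3os, antisense to a homeobox gene, at 28.2 points, the matrix proteoglycan gene Spock3 at 26.9 points and the adhesion gene Mdga2 at 26.2 points.

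The decreases were led by Nrxn3, a presynaptic adhesion gene, at -31.7 points 902 kb into the gene (chromosome 12, 89624001 to 89625000, adjusted p = 0.0912 in the authors' deposited table). Magea5, a cancer-testis antigen gene on X, followed at -29.3 points, Mctp1 at -29.1 points and Slc35f1 at -28.9 points in the authors' deposited table. Ifi213, an interferon-inducible gene of the AIM2-like receptor cluster, was at -26.7 points 32.8 kb from its 5′ end, where the gene stops, in the authors' deposited table (adjusted p = 0.0901). Pbrm1, a subunit of the PBAF chromatin remodelling complex, was at -24.3 points and the nuclear exporter gene Xpo6 at -27.1 points in the authors' deposited table.

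An adjusted p of 2.14e-05, the smallest of the list, belonged to windows inside Chd9 and Caln1. Chd9, a chromodomain helicase gene, was 14.9 points higher (chromosome 8, 91030001 to 91031000), and Caln1, a neuronal calcium-binding protein gene, was at -14.8 points (chromosome 5, 130702001 to 130703000), in the authors' deposited table. Wdr11, a trafficking and ciliary protein gene, stood at 15.5 points, the splicing factor gene Rbm20 at 18.7 points and Thrb, a thyroid hormone receptor gene, at 17.9 points in the authors' deposited table. Next among windows near named genes came Nkx2-2os at -14.7 points, the oxysterol hydroxylase gene Cyp39a1 at 10.7 points and Otulinl, 5.07 kb away, at -12.3 points. The nonmuscle myosin gene Myh9 followed at -11.1 points and the cadherin gene Cdh8 at 17.1 points in the authors' deposited table. Of these 10 genes 6 were higher and 4 lower, close to the split of the whole list.

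The chosen lists of blood cell genes together held 9 windows, where the rate over all coding genes gives 10.9 over their length. The 4 lists of erythroid and megakaryocyte markers, T and NK cell markers, B cell markers and innate sensing and interferon response genes had 0 windows at 197 members. These genes are short: with 10 kb on each side they cover 10.03 Mb, where the rate over all coding genes (0.369 windows per Mb) gives 3.70 windows. The 0 also depends on which genes were listed. The interferon-inducible genes Sp100 and Ifi213, named above, had windows and are not on these lists. The myeloid list had 1 of 50 members, Ltf, the lactoferrin gene of neutrophil granules, with a window 4.29 kb away that the authors' deposited table gives at 12.2 points (adjusted p = 0.00253). Together the blood lists had 9 of 433 members with a window (2.08%, against 2.79% of coding genes), 6 higher and 3 lower.

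Of 79 transcription factors of blood formation, 4 had a window, where the coding rate gives 3.30 windows over their length. Foxp3, the master regulator of regulatory T cells on X, was 18.8 points higher (chromosome X, 7586001 to 7587000, adjusted p = 0.0756 in the authors' deposited table), 6.82 kb from the 5′ end of the gene. Zbtb16, the factor of innate-like T cells, was 15.9 points higher in the authors' deposited table. Runx1 was at -14.2 points (chromosome 16, 92654001 to 92655000, adjusted p = 0.0535) and Foxo3 at -17.3 points (adjusted p = 0.0941) in the authors' deposited table. Among the 107 listed cytokines, chemokines and receptors 4 had a window, where the coding rate gives 3.07. They were Epo, the erythropoietin gene, 6.18 kb away at 11.8 points, Il16 at 10.98 points, Tgfbr3, 6.37 kb away at 11.2 points, and Il1rapl1, which acts mainly at synapses, at -21.4 points in the authors' deposited table.

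Further genes of blood cells had windows without being on these lists, and those named here were chosen after their values were seen, so their signs give no direction for such genes as a group. Among the antigen receptor loci, which rearrange in lymphocytes, Tcra, Tcrb and Igh held a window each. The authors' deposited table gives Tcra at 24.7 points, Tcrb at 13.6 points and Igh at -15.8 points. These loci are long, at 1796 kb for Tcra, 667 kb for Tcrb and 2751 kb for Igh. The rate over all coding genes is 0.369 windows per Mb. The NK cell receptor genes Klra6 and Klra2 stood at 24.5 points (adjusted p = 0.00270) and -11.6 points (adjusted p = 0.0943), per the authors' deposited table. Near the mast cell protease genes Mcpt1 and Mcpt4 the authors' deposited table has 14.3 points 9.96 kb away and -20.2 points 5.69 kb away. Both pairs held windows of opposite sign. Ncf4, a subunit gene of the phagocyte oxidase, had a window 5.42 kb away at 18.6 points, and the lectin gene Clec4a2 one 6.002 kb away at -14.3 points, per the authors' deposited table. The authors' deposited table also lists the eosinophil chemokine Ccl11, 6.05 kb away, at 14.4 points and the interleukin-5 receptor gene Il5ra, 5.96 kb away, at -13.3 points.

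Several genes chosen this way had a window within 1 kb of an end. Batf3, the factor of cross-presenting dendritic cells, was at 12.5 points and Rela, the p65 subunit of NF-kappaB, at 11.8 points, the latter 0.442 kb upstream, per the authors' deposited table (adjusted p = 0.0403 and 0.0425). Ahr, the aryl hydrocarbon receptor gene, had a window 0.012 kb from one end at 15.9 points, and H2-DMb2, which loads peptides on class II molecules, one 0.229 kb upstream at 16.2 points, per the authors' deposited table. At Pglyrp2, a peptidoglycan-recognition protein gene, the authors' deposited table gives 17.2 points, and at Prom1, which encodes the stem cell antigen CD133, -16.4 points.

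Neuronal gene lists held many more windows per member than blood lists, and about the same number per length. Of 321 neuronal genes 38 (11.8%) had a window. Their median length is 135 kb, against 17.3 kb over all coding genes, and they held 0.387 windows per Mb, where all coding genes held 0.369 and the blood lists 0.304. The giant genes, chosen for their length whatever their role, gave 24 of 67 members (35.8%) and 0.381 windows per Mb. Neuronal adhesion genes had 14 of 75 members with a window, 10 windows higher and 5 lower, where the coding rate gives 14.65 windows. The largest differences were lower, at Nrxn3, above, Dscam at -24.4 points and Cntnap5a at -19.6 points in the authors' deposited table. Among the others were the teneurin genes Tenm3 at 11.5 points and Tenm2 at -10.99 points and the latrophilin gene Adgrl3 at 18.9 points. Lsamp, a limbic adhesion gene, held windows of both signs, at -18.8 and 17.8 points in the authors' deposited table.

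Cadherins and protocadherins had 7 of 47 members with a window, 6 of them higher. Per the authors' deposited table Pcdh11x was at 18.8 points, Pcdh15 at 16.7 points, Cdh13 at 16.6 points, Pcdh12 at 12.9 points and Cdh6 at 10.9 points, and Pcdh7 stood apart at -17.1 points. Their 0.560 windows per Mb give 7 windows where the coding rate gives 4.605. Glutamate receptor and scaffold genes had 7 of 55, with 7 windows where the coding rate gives 7.14, 5 higher and 2 lower. Among them were Grm3 at 17.2 points, Grm8 at 11.9 points and Dlg2 at -15.3 points in the authors' deposited table. Calcium, sodium and potassium channel genes had 6 of 69, with 2 windows higher and 4 lower, where the coding rate gives 6.10. Axon guidance genes had 4 of 75 with 5 windows split 3 to 2, where it gives 5.66. The circadian and metabolic list had 4 of 53, with 5 windows where the coding rate gives 3.14, and held the nuclear receptor genes Esrrg at 14.2 and 10.3 points and Rxra at 10.8 points in the authors' deposited table.

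**Figure D5:**
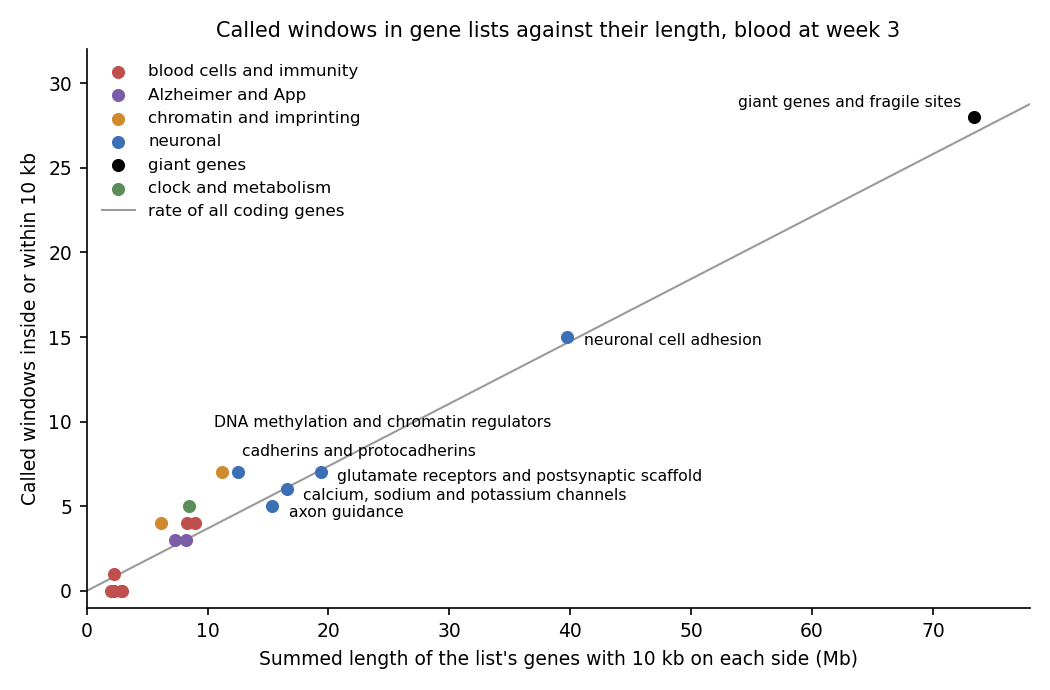
Number of called windows inside or within 10 kb of the genes of each list (vertical axis) against the summed length of those genes with their flanks (horizontal axis, Mb), one point per list, coloured by theme; the grey line is the rate over all coding genes, 0.369 windows per Mb. The lists lie along the line, with the giant genes (28 windows, 73.4 Mb) at the top right and blood marker lists without a window at the bottom left.

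Genes that write, read or remodel chromatin had 7 of 94 members with a window, 3 higher and 4 lower, where the coding rate gives 4.14 windows. The list does not hold every such gene. Outside its count, Pbrm1, above, Chd1l at -10.8 points and Kdm3a at -11.9 points were lower in the authors' deposited table. Cdyl2 at 12.7 points and Kansl1l at 13.4 points, also outside it, were higher there. These genes were picked after their values were seen, so their signs give no direction for such genes as a group. The histone methyltransferase gene Kmt2c was at 25 points and the deacetylase gene Hdac4 at 23.7 points, while Hdac8 was at -15.8 points, Hdac9 at -15.4 points 7.91 kb away and Mbd5, of the methyl-CpG-binding family, at -14.3 points in the authors' deposited table. Chd7, mutated in CHARGE syndrome, was at -12.1 points in the authors' deposited table, opposite in sign to Chd9. Imprinted genes had 4 of 70 members with a window, where the coding rate gives 2.27 windows. Mest, expressed from the paternal copy and methylated at its promoter on the maternal copy, was 16.2 points higher (chromosome 6, 30735001 to 30736000, adjusted p = 0.0105), 1.99 kb from its 5′ end, in the authors' deposited table. Ddc at 12.7 points, Trappc9 at 12.3 points and Ppp1r9a at -11.9 points made up the rest in the authors' deposited table.

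Of 57 genes at Alzheimer risk loci 3 had a window. Inpp5d, the SHIP1 phosphatase gene of blood and microglial cells, had one 7.31 kb upstream (chromosome 1, 87612001 to 87613000), which the authors' deposited table gives at 11.9 points (adjusted p = 0.00536). The authors' deposited table also gives Cntnap2 at 12.2 points and Plekha1, 8.55 kb away, at -15.2 points. Among 45 genes of App processing and amyloid clearance, 2 had a window. Lrp1b, a lipoprotein receptor relative that binds App, held windows of both signs at 15.3 and -16.1 points, and Rtn4, which encodes the reticulon Nogo, was at -16.7 points in the authors' deposited table. Over the length of these lists the coding rate gives 3.03 windows where the risk loci held 3, and 2.70 where the App list held 3.

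The edited gene itself held no window. App lies at 84952666 to 85175255 on chromosome 16, and no called window lay within 1 Mb of it. Within 5 Mb there were 2, at -15.7 points 3.03 Mb away and at 18.1 points in Ncam2 3.55 Mb away, per the authors' deposited table. Within 10 Mb there were 10, 6 higher and 4 lower, of 38 on the chromosome.

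One window on this chromosome was called in 3 of the 6 comparisons. Chromosome 16, 79105001 to 79106000, lies outside genes, 13.9 kb from the enteropeptidase gene Tmprss15 and 5.85 Mb from App. In the authors' deposited table it was at -36.7 points in blood at week 3 (adjusted p = 0.0306), at -24.8 points in blood at week 8 (adjusted p = 0.0253) and at -31.9 points in hippocampus at week 3 (adjusted p = 0.00649). It was the lowest window of blood at week 3. The 3 comparisons use different libraries, and whether blood and hippocampus came from the same animals is not given in the sources used here. Within 250 kb on either side the lists held further windows, with 2 more in blood at week 3, at -14.7 and 13.5 points, 4 in blood at week 8, 1 in blood at week 24 at 14.8 points and 1 in hippocampus at week 8 at 13.5 points in the authors' deposited table. That hippocampal window lay within 5 kb of the 13.5-point window of blood at week 3.

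Few other windows recurred. Identical windows numbered 4 in all. Of the 1151 windows on chromosomes, 0.174% were identical to one of blood at week 8, where 0.196% of tested windows were called. For hippocampus the shares were 0.174% at week 3 and 0.0869% at week 24, where 0.044% and 0.0408% were called. Each share rests on 1 or 2 windows. The window inside Cacna2d1, a calcium channel subunit gene (chromosome 5, 15954001 to 15955000), was 15.3 points higher in blood at week 3 and at -10.5 points in blood at week 8 in the authors' deposited table. A window 36.6 kb from Mki67 was 16.7 points higher in blood and at -13.0 points in hippocampus at week 3 in the authors' deposited table. A window on chromosome 15 (15361001 to 15362000), 1367 kb from the nearest coding gene Cdh9, was 25.5 points higher here and 24.8 points higher in hippocampus at week 24 in the authors' deposited table. Blood at week 24 and hippocampus at week 8 shared 0 identical windows.

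With neighbours within 5 kb counted, 21 windows met one of blood at week 8, 1 of blood at week 24, 5 of hippocampus at week 3, 4 at week 8 and 6 at week 24. The share of all tested windows that lie this near to each list was not computed, so these counts have no background beside them. The pairs with blood at week 8 went the same way in 9 cases and opposite ways in 13, where 11.1% of the whole week 8 list was higher against 63.2% here. Those with hippocampus went the same way in 12 of 15, where 29.5%, 54.6% and 58.6% of the lists at weeks 3, 8 and 24 were higher. The same-way pairs include windows near the pseudogene Vmn2r-ps69 (-23.3 points in blood and -22.8 in hippocampus at week 24), at Vegfc (20.8 and 14.8 in hippocampus at week 8) and at the proteoglycan gene Gpc1 (-15.3 and -15.1 in hippocampus at week 3) in the authors' deposited table. At the level of coding genes that are not predicted ones, 149 of 569 (26.2%) also had one in blood at week 8, which is 3.69% of that longer list. That list covered 20.3% of the 19915 coding genes that are not predicted ones. With the other lists the overlaps were 21 genes (3.69%) for blood at week 24, 39 (6.85%) for hippocampus at week 3, 34 (5.98%) at week 8 and 39 (6.85%) at week 24. Those lists covered 1.29%, 2.67%, 1.81% and 2.46% of the same genes. Gene length was not held equal in these overlaps, and a long gene is more likely to be in any list. Auts2, Cntnap2, Gpc5, Grm8, Lingo2, Macrod2 and Rbfox1, each a very long gene, had a window in 4 of the 5 other lists.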

How the data were processed

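Blood DNA from 10 App-NLGF and 10 wild-type libraries at postnatal week 3 was compared by the authors with whole-genome bisulfite sequencing. FastQC, Trim Galore, Bismark and methylKit with the mm10 build are named in the submitters' processing notes without versions. Sex was a covariate, per the series' design text. The deposited table holds only called windows of 1 kb, each with a difference in percentage points and the authors' own p-value and adjusted p-value, and 0 columns of values per library, so nothing was tested anew here and depth is unknown.

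Windows were counted with pandas 2.3.3 and assigned to every gene they overlapped or lay within 10 kb of in the GRCm38.p6 RefSeq gene table (49554 genes). That table and the promoter table give no exons, and the promoter table covered 19 chromosomes. The 2 windows on scaffolds were left out of positions. The counting was tested on simulated windows. Genes were named from the 12 highest and 12 lowest differences and the 10 lowest adjusted p-values near genes that are not predicted ones. Others came from genes with 3 windows, the 10 strongest at gene ends, and up to 4 per gene list. Not every gene under these rules is named, and some named genes fall outside them. Members and lists were chosen with earlier results of these data known. The design text gives 5 per sex, age and genotype, and litters are not named.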

Additional observations from a re-analysis of the deposited data

How the results depend on the processing

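The share of higher windows, 63.2%, was 61.0% among windows with an adjusted p under 0.01, 65.5% among those of at least 15 points, 63.3% on the autosomes, 63.2% with windows within 10 kb joined and 63.2% without scaffolds, an alternative chosen after seeing the data. Windows inside coding genes, 32.9% of the list, made up 41.9% under the stricter adjusted p and 27.0% at 15 points or more. Windows outside genes, 52.7%, made up 45.7% and 57.8%. The cause was not tested. At 15 points or more 252 coding genes had a window in place of 603, since fewer windows remained, and 15 of 23 gene lists changed their count of members by more than 1.5 times. With only windows inside genes, 6 did. Counting neighbours within 5 kb raised shared windows to 21 with blood at week 8, 1 with week 24, and 5, 4 and 6 with hippocampus at weeks 3, 8 and 24. No background share was computed for these counts. Leaving out a library could not be done, and no paired analysis was possible because the result comes from a list of called windows with no values per library. A window absent from the list may have missed a threshold or been thinly covered.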
